A study of Mus musculus with 6 samples.

Results

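Of the direct targets of the transcription factor p53 that act in growth arrest and cell death, 10 were followed through 6 RNA sequencing libraries of mouse sarcomas and NG2 cells: Btg2, Ccng1, Zmat3, Sesn2, Gdf15, Pmaip1, Bbc3, Bax, Trp53inp1 and Phlda3. They were chosen by name, and each symbol matched 1 Ensembl gene ID, which gave 10 of the 38561 genes counted. All 10 passed the filter on low counts. In both kinds of sarcoma the antiproliferative gene Btg2 and the death genes Pmaip1, Bbc3 and Trp53inp1 were lower in the tumours than in NG2 cells, the Akt inhibitor gene Phlda3 was higher, and Zmat3 was higher but called in soft tissue sarcoma alone. Bax, Ccng1, Sesn2 and Gdf15 were not called in either comparison.

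All 6 libraries came from NG2-Cre;p53flox/flox mice of mixed background. In this model Cre is expressed from the promoter of Cspg4, which encodes the NG2 proteoglycan that pericytes carry, and cuts a floxed part out of the p53 gene Trp53 in cells that have used that promoter. The 3 groups of 2 libraries were NG2 cells, which an NG2 antibody had sorted from skeletal muscle and which are labelled normal; osteosarcomas, primary malignant tumours of the right tibia (replicate 1) and the lumbar spine (replicate 2); and soft tissue sarcomas, primary malignant tumours of subcutaneous tissue. The NG2 cells carried the same floxed alleles as the tumours, so no group had an unmodified Trp53 gene. NG2 cells were sorted, whereas no sort is given for the tumours, and the ages and the number of animals are not given in the sources used here. The p-values therefore measure the spread between these libraries, which may be technical in part.

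When DNA is damaged or an oncogene is active, p53 is stabilised, binds a pair of short half-sites near its target genes and raises their transcription. Some targets halt the cell cycle, some adjust metabolism or signal to other cells, and some open the mitochondrial route to apoptosis, in which BH3-only proteins release Bax to permeabilise the outer mitochondrial membrane. Several of these genes have other inducers too: Btg2 and Pmaip1 respond to acute stimulation, and Sesn2 and Gdf15 respond to the stress factor ATF4.

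Reads counted on genes ranged from 27693585 to 58126832 per library, and log2 normalised counts correlated between replicates at Pearson's r of 0.889 to 0.943 across genes, which are not independent replicates. Trp53 itself, counted over the whole gene, was read in normalised counts (CPM, each library scaled to the same total by TMM). It stood at 101 and 82.3 CPM in the sorted cells, at 24.3 and 32.6 in the osteosarcomas and at 31.2 and 27.3 in the soft tissue sarcomas. The log2 fold change against NG2 cells was -1.69 ± 0.30 (SE) for osteosarcoma (adjusted p = 0.0172) and -1.65 ± 0.30 for soft tissue sarcoma (adjusted p = 0.0199), so Trp53 fell in both. Leaving out either NG2 cell or either soft tissue sarcoma library ended both calls (adjusted p of 0.0534 to 0.166). These counts do not resolve the deleted part of the gene, so they do not check the deletion. The NG2 cell libraries also held RNA of other cells: the summed level of 15 lymphocyte markers was 10460 and 4967 CPM there against 58.1 to 171 CPM in the tumours, and all 15 fell in both comparisons. The tumours still held lymphocyte RNA at a low level, and among these markers Ms4a1, Cd3g and Ccr7 were at 0 in osteosarcoma replicate 1, Ms4a1 in replicate 2 and Pax5 in soft tissue sarcoma replicate 1. The sum of 10 endothelial markers was 1499 and 2576 CPM in NG2 cells and 201 to 615 CPM in the tumours, with none at 0 in any library, and 4 and 5 of the 10 fell. The sum of 10 granulocyte markers was 72.6 and 3419 CPM in NG2 cells and 25.9 to 33.7 CPM in the tumours, where 6 and 3 of them fell. Of these Ltf was at 0 in both osteosarcomas, Cxcr2 and Elane in osteosarcoma replicate 1, and Ngp and Elane in soft tissue sarcoma replicate 2. Cspg4, the gene of the sorting antigen, was at 38.7 and 30.7 CPM in NG2 cells, and at 37.7 to 189 CPM in the tumours. All 10 osteoblast markers rose in osteosarcoma. Over all tested genes 11% fell in osteosarcoma and 9.4% in soft tissue sarcoma, and 10.5% rose in osteosarcoma. In such bulk RNA, fewer cells of a type and less RNA per cell cannot be told apart, and each group had a flow cell lane of its own in the deposited names, so lane and group cannot be told apart.

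**Figure D1:**
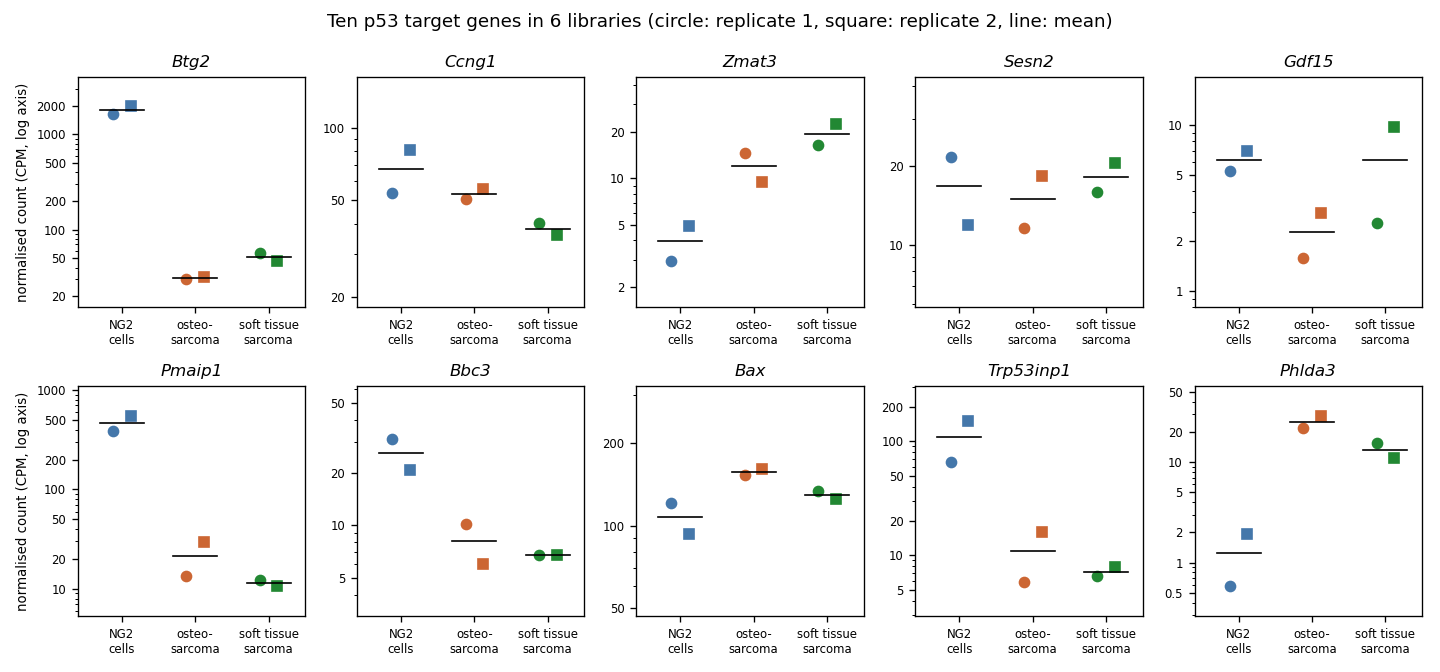
Normalised count (CPM, log axis) of each of the 10 p53 target genes in each library, with circles for replicate 1, squares for replicate 2 and a line at the group mean. The tumour libraries lie far below both NG2 cell libraries for Btg2 (30.5 to 56.9 against 1630 and 1996 CPM) and Pmaip1, and above them for Phlda3 and Zmat3.

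In osteosarcoma against NG2 cells, 1 of the 10 members rose and 4 fell, and the other 5 did not pass the threshold (adjusted p under 0.05). Over all 19024 genes tested, 10.5% were called higher and 11% lower, 21.5% in all. In soft tissue sarcoma against NG2 cells, 2 of the 10 rose and 4 fell, where 9.89% of all tested genes were called higher and 9.4% lower, 19.3% in all. The median log2 fold change of the 10 was -0.89 in osteosarcoma (0.035 over all genes) and -0.41 in soft tissue sarcoma (0.00 over all genes). Both comparisons use the same 2 NG2 cell libraries, so the second is not independent of the first.

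Both osteosarcoma libraries lay below both NG2 cell libraries for 5 members, and above them for 3, where 32.4% and 32.7% of all tested genes did so. In soft tissue sarcoma, 5 members lay below and 3 above without overlap, against 34.6% and 35.8% of all genes. In osteosarcoma 3 members remained called without NG2 cell replicate 2 or either soft tissue sarcoma library: Btg2, Pmaip1 and Phlda3. The calls in soft tissue sarcoma rested on both of its libraries. Without either one no gene of the whole table was called, and none of the 10 members, while 6 remained called without either osteosarcoma library and 3 without either NG2 cell library.

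**Figure D2:**
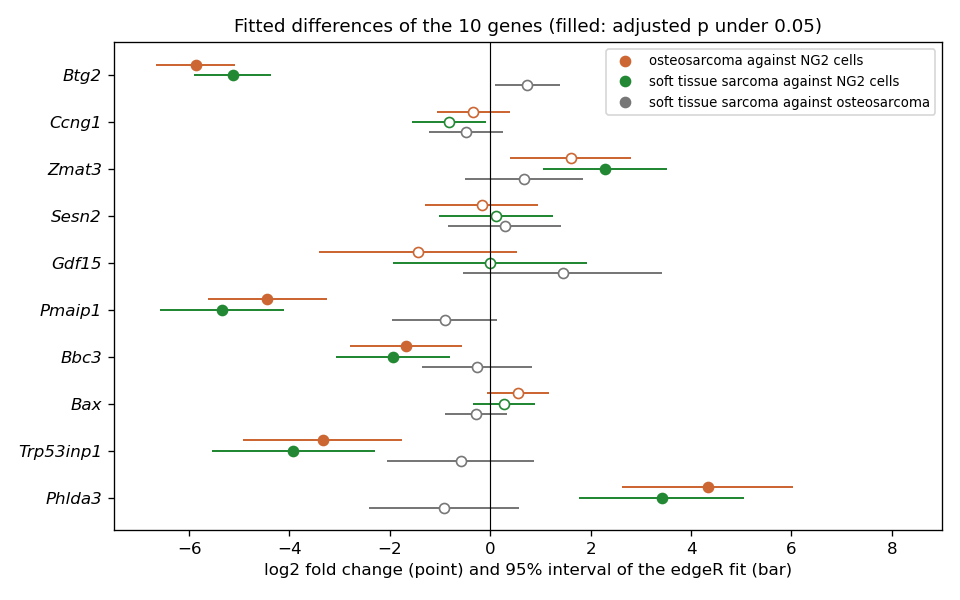
Fitted log2 fold change of each gene (point) with its 95% interval (bar) in the 3 comparisons; filled points have an adjusted p under 0.05. Btg2, Pmaip1, Bbc3 and Trp53inp1 lie to the left of 0 and Phlda3 to the right in both comparisons with NG2 cells, and no point is filled in the comparison between the tumours.

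Among the members that restrain growth, Btg2 (ENSMUSG00000020423, GRCm38 chr1:134075170-134079120, minus strand) encodes an antiproliferative protein of the BTG/TOB family that recruits the CCR4-NOT deadenylase to mRNAs. Its level was 1630 and 1996 CPM in the sorted cells, 30.5 and 31.5 in the osteosarcomas and 56.9 and 46.5 in the soft tissue sarcomas. The groups did not overlap, and the osteosarcomas were the lowest. The mean was 1813 ± 259 CPM (SD, n = 2) in NG2 cells. Btg2 fell 58.5-fold in osteosarcoma, a log2 fold change of -5.87 ± 0.33 (SE; adjusted p = 0.00419), and 35.1-fold in soft tissue sarcoma (-5.13 ± 0.31, adjusted p = 0.0073). The call in osteosarcoma held in all 13 alternative fits; that in soft tissue sarcoma was lost without soft tissue sarcoma replicate 1 or 2 (adjusted p = 0.061 and 0.0581).

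The 250 bases before the RefSeq start of Btg2 (GRCm38.p6, minus strand, chr1:134079156-134079405) are shown because Btg2 had the largest decrease of the 10 in osteosarcoma. They hold no match to the p53 consensus, as searched below, and 1 match to the cAMP response element TGACGTCA, in capitals, which begins 166 bases before the start. That element was looked for after the sequence had been read. It is found in 1.79% of the 32841 mouse promoter windows of 300 bases, on either strand.
Btg2 promoter: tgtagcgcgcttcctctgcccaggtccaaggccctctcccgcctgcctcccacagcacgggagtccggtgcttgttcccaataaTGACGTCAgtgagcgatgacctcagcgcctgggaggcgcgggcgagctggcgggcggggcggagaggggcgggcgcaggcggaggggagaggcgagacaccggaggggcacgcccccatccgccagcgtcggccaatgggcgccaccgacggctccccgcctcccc

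Ccng1 (ENSMUSG00000020326, chr11:40748552-40755311, minus strand) encodes cyclin G1, which brings the phosphatase PP2A to Mdm2. Its levels were close in all groups, at 53.8 and 80.9 CPM in the sorted cells, at 50.7 and 56.0 in the osteosarcomas and at 40.3 and 36.1 in the soft tissue sarcomas. The osteosarcoma and NG2 cell libraries overlapped, whereas both soft tissue sarcomas lay below all other libraries. The log2 fold change was -0.34 in osteosarcoma (95% interval -1.07 to 0.40, adjusted p = 0.448). In soft tissue sarcoma it was -0.82 (-1.56 to -0.08, adjusted p = 0.106), which DESeq2 called (adjusted p = 0.0365), as it did 34.5% of all genes in that comparison.

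The promoters of 7 members were in the RefSeq table, in 10 windows of 250 bases before to 50 after a start: Btg2, Ccng1, Sesn2, Gdf15, Bbc3, Bax and Phlda3. They were searched for the p53 consensus, a pair of half-sites of 10 bases with a spacer of 0 to 13 bases, with the core C and G of each half-site kept. The half-site is its own reverse complement, so the search covers both strands. Sequence outside these windows was not searched, so a site elsewhere in or near these genes would have been missed. Ccng1 held the closest match of these windows, a site with 1 mismatch and no spacer that begins 195 bases before the start (chr11:40755462-40755481). Such a site, with at most 1 mismatch, is in 0.627% of all windows. It is in capitals in the 250 bases before the start (minus strand, chr11:40755287-40755536), shown because Ccng1 was among the members that no edgeR comparison called.
Ccng1 promoter: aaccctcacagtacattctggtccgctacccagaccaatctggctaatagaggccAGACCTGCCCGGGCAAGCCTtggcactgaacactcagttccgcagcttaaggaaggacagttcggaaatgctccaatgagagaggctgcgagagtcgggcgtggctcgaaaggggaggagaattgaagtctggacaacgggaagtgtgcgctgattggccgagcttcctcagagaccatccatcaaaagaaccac

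Zmat3 (ENSMUSG00000027663, chr3:32334792-32366014, minus strand) encodes an RNA-binding zinc finger protein. It was one of the members that were higher in the tumours, with 2.96 and 4.95 CPM in the sorted cells, 14.7 and 9.49 in the osteosarcomas and 16.3 and 22.4 in the soft tissue sarcomas. The 3 groups did not overlap. It rose 4.88-fold in soft tissue sarcoma (log2 fold change 2.29 ± 0.50, adjusted p = 0.0314). In osteosarcoma its log2 fold change of 1.61 missed the threshold (95% interval 0.40 to 2.81, adjusted p = 0.0653); DESeq2 called it (adjusted p = 0.0106), where it called 38.5% of all genes. The call in soft tissue sarcoma was lost without any 1 of the NG2 cell or soft tissue sarcoma libraries, at adjusted p of 0.0734 to 0.19.

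Sesn2 and Gdf15 link p53 to metabolism and to other tissues. Sesn2 (ENSMUSG00000028893, chr4:132492032-132510501, minus strand) encodes sestrin 2, which senses leucine and restrains mTORC1. Its levels overlapped in all groups, at 21.7 and 11.9 CPM in the sorted cells, at 11.6 and 18.2 in the osteosarcomas and at 15.9 and 20.5 in the soft tissue sarcomas. The log2 fold change was -0.17 (95% interval -1.30 to 0.96) in osteosarcoma and 0.11 (-1.01 to 1.24) in soft tissue sarcoma. Its direction turned with single libraries: it was 0.32 in osteosarcoma without NG2 cell replicate 1 and 0.12 without osteosarcoma replicate 1, and in soft tissue sarcoma it was -0.24 without NG2 cell replicate 2 and -0.051 without soft tissue sarcoma replicate 2.

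Gdf15 (ENSMUSG00000038508, chr8:70629393-70632456, minus strand) encodes a secreted stress hormone that lowers appetite. It had the lowest mean CPM of the 10 across the libraries, with 5.29 and 7.02 CPM in the sorted cells, 1.59 and 2.95 in the osteosarcomas and 2.57 and 9.77 in the soft tissue sarcomas. The soft tissue sarcomas differed most between replicates and spanned both NG2 cell values, while both osteosarcomas lay below NG2 cells. Neither difference from NG2 cells passed the test: the log2 fold change was -1.44 in osteosarcoma (95% interval -3.42 to 0.53, adjusted p = 0.237) and 0.001 in soft tissue sarcoma (-1.93 to 1.93), where leaving out soft tissue sarcoma replicate 2 gave -1.24. These intervals are wide, so differences of several-fold in either direction were not excluded at this depth and spread for soft tissue sarcoma.

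Of the members in the mitochondrial route to apoptosis, Pmaip1 differed most from NG2 cells, Bbc3 less and Bax least. Pmaip1 (ENSMUSG00000024521) encodes Noxa, a BH3-only protein that neutralises Mcl1. It was at 383.9 and 546 CPM in the sorted cells, at 13.5 and 29.3 in the osteosarcomas and at 12.2 and 10.6 in the soft tissue sarcomas. All 4 tumour libraries were below both NG2 cell libraries. It fell 21.8-fold in osteosarcoma (-4.44 ± 0.48 on the log2 scale, adjusted p = 0.00664) and 40.8-fold in soft tissue sarcoma (-5.35 ± 0.51, adjusted p = 0.00823). The first call held in all 13 alternative fits, with -5.09 without osteosarcoma replicate 2, and the second was lost without soft tissue sarcoma replicate 1 or 2 (adjusted p = 0.064 and 0.0704).

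Bbc3 (ENSMUSG00000002083, chr7:16308393-16318205, plus strand) encodes Puma, a BH3-only protein that binds all the antiapoptotic Bcl2 proteins. It was less abundant than Pmaip1, at 31.3 and 20.7 CPM in the sorted cells, at 10.2 and 6.01 in the osteosarcomas and at 6.76 and 6.77 in the soft tissue sarcomas. Every tumour library again lay below both NG2 cell libraries. Bbc3 fell 3.20-fold in osteosarcoma (-1.68 ± 0.46 on the log2 scale, adjusted p = 0.0495) and 3.84-fold in soft tissue sarcoma (-1.94 ± 0.46, adjusted p = 0.038). These were the calls nearest the threshold among those of the 10: the first was lost in 9 of 13 alternative fits, each fit without 1 library included (adjusted p of 0.0551 to 0.166), and the second without any 1 of the NG2 cell or soft tissue sarcoma libraries (0.078 to 0.221). Its first promoter window holds a p53 site with 3 mismatches and no spacer, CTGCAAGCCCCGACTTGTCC, that begins 97 bases before the start (chr7:16309486-16309505, plus strand); 15.6% of all windows hold a site with at most 3 mismatches.

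Bax (ENSMUSG00000003873, chr7:45461697-45466898, minus strand) encodes the pore-forming effector of this route. It differed little, with 121 and 93.3 CPM in the sorted cells, 153 and 161.5 in the osteosarcomas and 134 and 125 in the soft tissue sarcomas. All 4 tumour libraries were above both NG2 cell libraries, but the steps were small. The log2 fold change was 0.55 in osteosarcoma (95% interval -0.07 to 1.17, adjusted p = 0.164) and 0.27 in soft tissue sarcoma (-0.35 to 0.89, adjusted p = 0.47).

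The Bax promoter held the second closest match to the p53 consensus, with 2 mismatches and a spacer of 5 bases, that begins 216 bases before the start (chr7:45467090-45467114). Of all windows, 4.09% hold a site with at most 2 mismatches. It is in capitals, with the spacer in lower case, in the 250 bases before the start (minus strand, chr7:45466899-45467148). They are shown beside those of Ccng1 because neither gene was called in any edgeR comparison. Sesn2 and Gdf15 were not called in any edgeR comparison either, and their windows held no site with at most 3 mismatches. Those of Phlda3 and Btg2, which were called, held none either. Whether such sites go with the calls was not tested.
Bax promoter: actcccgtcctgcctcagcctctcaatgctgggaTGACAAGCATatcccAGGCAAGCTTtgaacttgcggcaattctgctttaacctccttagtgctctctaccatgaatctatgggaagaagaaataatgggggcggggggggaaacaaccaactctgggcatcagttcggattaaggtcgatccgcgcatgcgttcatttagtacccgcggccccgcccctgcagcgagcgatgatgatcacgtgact

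Trp53inp1 (ENSMUSG00000028211, chr4:11156431-11174379, plus strand) encodes a stress protein of autophagy and of p53 phosphorylation. It was at 65.9 and 152 CPM in the sorted cells, at 5.82 and 15.9 in the osteosarcomas and at 6.54 and 7.82 in the soft tissue sarcomas. The NG2 cell replicates differed by a larger ratio than for Pmaip1 or Bbc3, yet both lay above every tumour library. Trp53inp1 fell 10.1-fold in osteosarcoma (-3.33 ± 0.65 on the log2 scale, adjusted p = 0.0216) and 15.2-fold in soft tissue sarcoma (-3.93 ± 0.67, adjusted p = 0.0171). Without NG2 cell replicate 2 the values were -2.60 (adjusted p = 0.0824) and -3.18 (0.0666), and both calls were also lost without soft tissue sarcoma replicate 1 or 2 (0.0522 and 0.0535 in osteosarcoma, 0.122 and 0.124 in soft tissue sarcoma). Without osteosarcoma replicate 2 the value in osteosarcoma was -4.21.

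Phlda3 (ENSMUSG00000041801, chr1:135766119-135769136, plus strand) encodes a pleckstrin homology protein that competes with Akt for membrane lipids. It was nearly absent from the NG2 cell libraries, at 0.58 and 1.90 CPM (21 and 83 reads), against 21.8 and 28.4 CPM for the osteosarcomas and 15.6 and 11.1 CPM for the soft tissue sarcomas. All 4 tumour libraries were well above NG2 cells. Phlda3 rose 20.1-fold in osteosarcoma (4.33 ± 0.70 on the log2 scale, adjusted p = 0.014) and 10.7-fold in soft tissue sarcoma (3.41 ± 0.67, adjusted p = 0.024). The log2 fold change moved with the NG2 cell library left out: it was 3.71 without NG2 cell replicate 1 and 5.43 without replicate 2 for the osteosarcomas, and 2.81 and 4.53 for the soft tissue sarcomas. The first call held in all 13 alternative fits; the second was lost without NG2 cell replicate 1 (adjusted p = 0.0602) and without soft tissue sarcoma replicate 1 or 2 (0.122 and 0.11).

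Scaled by exon length, the order of the 10 genes differed between groups. In NG2 cells Btg2 led with a mean of 661 CPM per kb of exon, followed by Pmaip1 at 170.2 and Bax at 68.0. In osteosarcoma Bax led at 99.8 CPM per kb, ahead of Phlda3 at 16.1, Ccng1 at 15.2 and Btg2 at 11.3. In soft tissue sarcoma Bax was again first at 82.1 CPM per kb, with Btg2 at 18.9 and Ccng1 at 10.9 behind it. Zmat3 was lowest in NG2 cells and osteosarcoma at 0.35 and 1.06 CPM per kb, and Trp53inp1 was lowest in soft tissue sarcoma at 1.11. The summed level of the 10, in CPM, was 2316 and 2915 for the sorted cells, 313 and 359 for the osteosarcomas and 307 and 296.5 for the soft tissue sarcomas; Btg2 and Pmaip1 made up most of the sum in NG2 cells.

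Between the tumours, the edgeR test called none of the 10 members in soft tissue sarcoma against osteosarcoma, where 0.0841% of all genes were called higher and 0.0578% lower, 0.142% in all. The unadjusted p was under 0.05 for 1 member, Btg2, which DESeq2 called (adjusted p = 0.0487), as it did 10.9% of all genes it tested in this comparison. Btg2 was higher in both soft tissue sarcomas than in either osteosarcoma, with a log2 difference of 0.74 (95% interval 0.09 to 1.39, adjusted p = 0.264). For Pmaip1 the difference was -0.91 (-1.95 to 0.13) and for Phlda3 -0.92 (-2.41 to 0.58). Gdf15 had the widest interval, 1.44 (-0.53 to 3.42), so the tumours were not shown to be alike in it. The remaining 6 had log2 differences between -0.59 and 0.68, and Zmat3, the highest of them, had an interval of -0.50 to 1.86. For 4 members the 2 kinds of tumour overlapped; 2 were higher and 4 lower in soft tissue sarcoma without overlap, where 25.8% and 24.5% of all genes were.

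A list of 30 other p53 targets was read beside the members. In osteosarcoma 4 of the 30 rose and 7 fell (all tested genes: 10.5% and 11%), with a median log2 fold change of -0.47. In soft tissue sarcoma 5 rose and 4 fell (all tested genes: 9.89% and 9.4%), with a median of -0.67. The count of calls in osteosarcoma went from 11 to 4 without NG2 cell replicate 1 or either soft tissue sarcoma library and to 1 without NG2 cell replicate 2; in soft tissue sarcoma the count went from 9 to 0 without NG2 cell replicate 1 and to 1 without replicate 2. The test between the tumours called none of the 30 with edgeR, 5 had an unadjusted p under 0.05, and DESeq2 called 5, beside that 10.9% of all genes. Cdkn1a, which encodes the cyclin-dependent kinase inhibitor p21, stood at 336 and 330.1 CPM in the sorted cells, at 114 and 68.4 in the osteosarcomas and at 67.3 and 76.5 in the soft tissue sarcomas. It fell 3.65-fold in osteosarcoma (adjusted p = 0.0168) and 4.63-fold in soft tissue sarcoma (adjusted p = 0.0137); both calls were lost without any 1 of the NG2 cell or soft tissue sarcoma libraries (0.0503 to 0.113). Mdm2, the ubiquitin ligase that degrades p53, was at 85.3 and 86.7 CPM in the sorted cells, at 39.7 and 60.0 in the osteosarcomas and at 36.0 and 30.2 in the soft tissue sarcomas. All tumour libraries were lower, and it fell 2.60-fold in soft tissue sarcoma (adjusted p = 0.0327, lost without any 1 of the NG2 cell or soft tissue sarcoma libraries at 0.0994 to 0.228), while in osteosarcoma the log2 fold change was -0.79 ± 0.30 (adjusted p = 0.113).

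Of the other targets, Ak1 and Fas changed more than Cdkn1a and Mdm2, in opposite directions. Ak1, an adenylate kinase gene, was at 1.52 and 2.04 CPM in the sorted cells, at 42.0 and 92.4 in the osteosarcomas and at 112 and 58.1 in the soft tissue sarcomas, and rose 37.6-fold (adjusted p = 0.00718) and 47.5-fold (adjusted p = 0.00871). Rps27l, a ribosomal protein paralog, rose 3.30-fold in osteosarcoma (adjusted p = 0.0141, lost without NG2 cell replicate 1 or 2 at 0.0696 and 0.0602). Fas, the death receptor gene, fell 13.7-fold in osteosarcoma (adjusted p = 0.015) from 49.9 and 75.6 CPM to 2.77 and 6.43 CPM; without NG2 cell replicate 2 its adjusted p was 0.0615, and without osteosarcoma replicate 2 its log2 fold change of -3.77 became -4.49. In soft tissue sarcoma Fas fell 9.51-fold (adjusted p = 0.0218), a call lost without NG2 cell replicate 1 or 2 (0.0627 and 0.0864). The call of Ak1 in soft tissue sarcoma was not kept without NG2 cell replicate 1 (adjusted p = 0.05), and, with those of all genes there, without either soft tissue sarcoma library. In osteosarcoma its log2 fold change was 5.23, and 4.57 without osteosarcoma replicate 2.

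**Figure D3:**
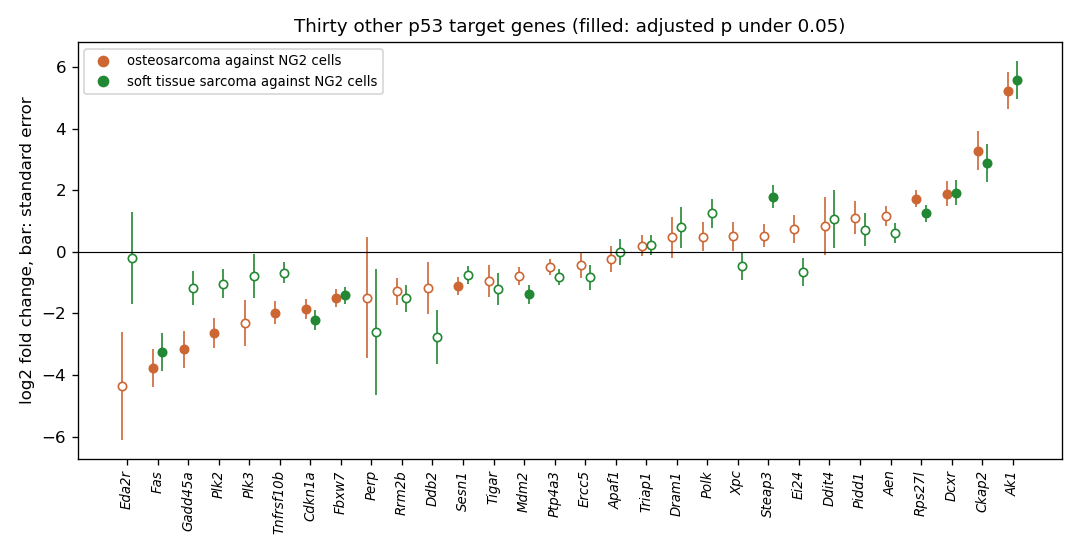
Log2 fold change with its standard error of 30 other p53 target genes in osteosarcoma (orange) and soft tissue sarcoma (green) against NG2 cells; filled points have an adjusted p under 0.05. Filled points stand on both sides of 0, from Fas at the lower end to Ak1 at the upper end.

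The partners of the death genes, 20 genes of the Bcl2 family and of the mitochondrial route with Bax, Bbc3 and Pmaip1 left out, were mixed as well. In osteosarcoma 4 rose (Bok, Bad, Cycs and Htra2) and 3 fell (Bcl2l1, Mcl1 and Bcl2l11). In soft tissue sarcoma 3 rose (Bok, Bad and Htra2) and 2 fell (Bcl2 and Mcl1). Over all tested genes 10.5% rose and 11% fell in osteosarcoma, and 9.89% rose and 9.4% fell in soft tissue sarcoma. The medians of the list were -0.18 and -0.05. Mcl1, the antiapoptotic partner of Noxa, was at 198 and 255 CPM in the sorted cells, at 47.2 and 83.2 in the osteosarcomas and at 84.8 and 72.0 in the soft tissue sarcomas. It fell 3.48-fold in osteosarcoma (adjusted p = 0.0228) and 2.89-fold in soft tissue sarcoma (adjusted p = 0.0359), and both calls were lost without any 1 of the NG2 cell or soft tissue sarcoma libraries (0.0615 to 0.23). Bok, a Bax-like effector, was at 7.12 and 3.92 CPM in NG2 cells and at 55.9 to 152 CPM in the tumours. It rose 22.5-fold in osteosarcoma (adjusted p = 0.00706) and 13.4-fold in soft tissue sarcoma (adjusted p = 0.011; 0.0538 without NG2 cell replicate 2). Bcl2l11, which encodes the BH3-only protein Bim, fell 6.67-fold in osteosarcoma (adjusted p = 0.0195; 0.0691 and 0.068 without NG2 cell replicate 1 or 2).

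**Figure D4:**
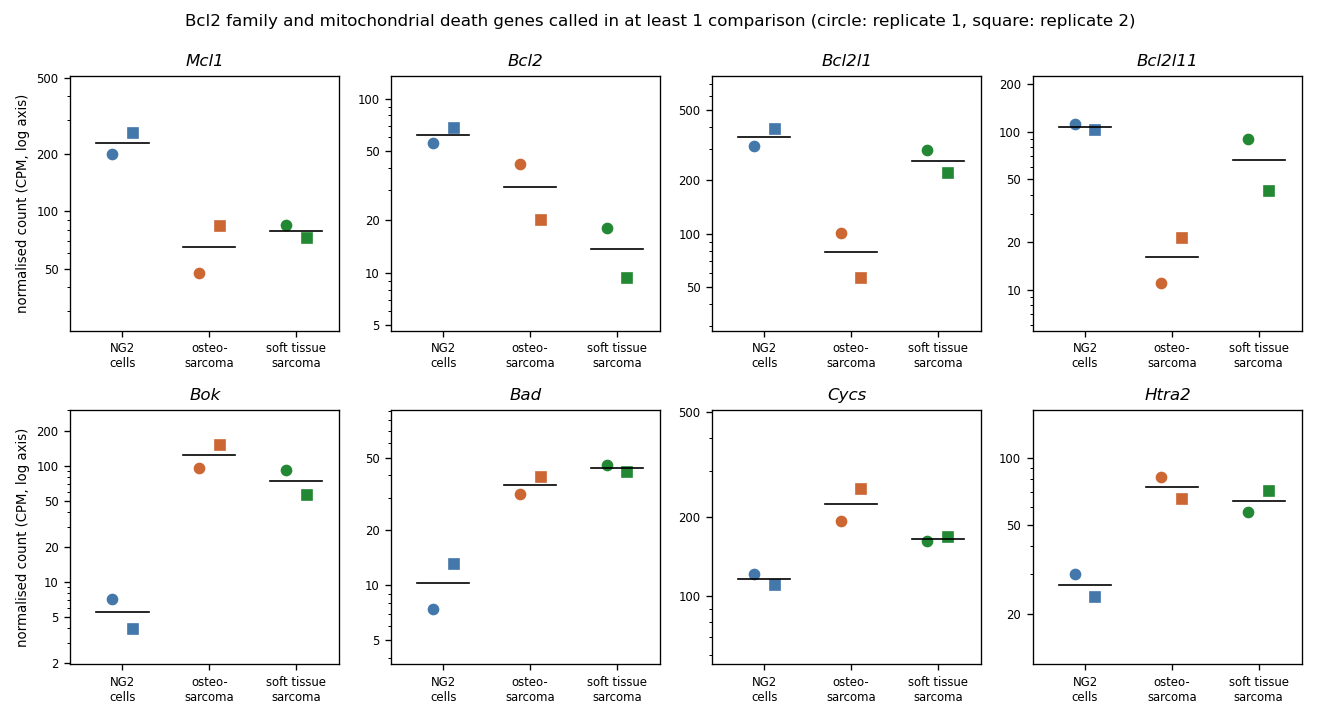
Normalised count (CPM, log axis) in each library of the 8 Bcl2 family and mitochondrial death genes called in at least 1 comparison with NG2 cells; circles are replicate 1, squares replicate 2 and lines group means. Mcl1 is lower in all 4 tumour libraries than in NG2 cells, and Bok, Bad and Htra2 are higher.

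Relatives of several members were lower in the tumours too. Of 13 paralogs, 11 were tested (Btg4 and Zmat4 did not pass the filter). Of these 7 fell in osteosarcoma (all tested genes: 11%) and 4 in soft tissue sarcoma (9.4%), with medians of -1.58 and -1.56. Sesn1 stands both among these and among the other p53 targets. Btg1, the nearest relative of Btg2, was at 1813 and 1558 CPM in the sorted cells, at 38.9 and 94.0 in the osteosarcomas and at 115 and 94.9 in the soft tissue sarcomas. It fell 25.4-fold (adjusted p = 0.00674) and 16.1-fold (adjusted p = 0.0106), and its log2 fold change in osteosarcoma was -4.67, or -5.42 without osteosarcoma replicate 2. Trp53inp2 fell 6.26-fold (adjusted p = 0.00887) and 7.49-fold (adjusted p = 0.00983), and Sesn3 fell 6.20-fold in osteosarcoma (adjusted p = 0.0169; 0.0659 and 0.0517 without NG2 cell replicate 1 or 2). Phlda1 and Phlda2 were not called in either comparison, unlike Phlda3. Phlda2 had few reads, 9 and 0 in NG2 cells and 0 in both osteosarcomas. In the soft tissue sarcomas it had 90 and 54. The difference between these relatives was not tested.

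The other inducers of these genes were read from lists of their own. Of 18 immediate early genes, which respond to acute stimulation, 17 fell in osteosarcoma (all tested genes: 11%) and 14 in soft tissue sarcoma (9.4%). Their summed level was 11440 and 12490 CPM for the sorted cells, 880.3 and 607 for the osteosarcomas and 950.5 and 905 for the soft tissue sarcomas, so it moved with Btg2 and Pmaip1; its part in their decrease was not tested. Atf3, one of these genes, fell 128-fold in osteosarcoma (adjusted p = 0.00419). The lymphocyte and endothelial sums also moved with the members that fell, and their part was not tested. Within NG2 cells, replicate 1 had the higher lymphocyte sum, and replicate 2 the higher endothelial, granulocyte, macrophage and immediate early sums. The lymphocyte markers were split. Lck (195.3 and 292.9 CPM in replicates 1 and 2), Cd3d, Cd3e, Cd3g and Cd8a were higher in replicate 2. The other markers of that list, with Ccr7 (3654 and 1522 CPM) and the B cell genes among them, were higher in replicate 1. Immunoglobulin genes took 0.97% and 5.10% of the counts. Of the members that fell, Btg2, Pmaip1 and Trp53inp1 were higher in replicate 2 and Bbc3 in replicate 1.

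Of 16 genes of the ATF4 stress response, 3 rose and 2 fell in osteosarcoma (all tested genes: 10.5% and 11%), with a median of 1.13. Those that rose there included Vldlr (log2 fold change 4.05, adjusted p = 0.0186) and Nupr1 (2.24, adjusted p = 0.0223). Without NG2 cell replicate 1 these values were 3.46 and 1.95. In soft tissue sarcoma 7 rose and 3 fell (all tested genes: 9.89% and 9.4%), with a median of 1.84. The genes that rose in soft tissue sarcoma included the cofactor gene Nupr1 (adjusted p = 0.0257; 0.109 and 0.0782 without NG2 cell replicate 1 or 2, and a log2 fold change of 1.56 without soft tissue sarcoma replicate 1). Atf4 itself fell 3.90-fold in osteosarcoma (adjusted p = 0.015; 0.0598 and 0.0543 without NG2 cell replicate 1 or 2). Ppp1r15a, the phosphatase subunit that reverses the stress arrest of translation, was at 828 and 520.2 CPM in NG2 cells and 14.8 to 29.0 CPM in the tumours. It fell 30.8-fold in osteosarcoma (adjusted p = 0.00552) and 28.8-fold in soft tissue sarcoma (adjusted p = 0.00846). Sesn2 and Gdf15, which ATF4 also induces, were not called beside these genes.

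**Figure D5:**
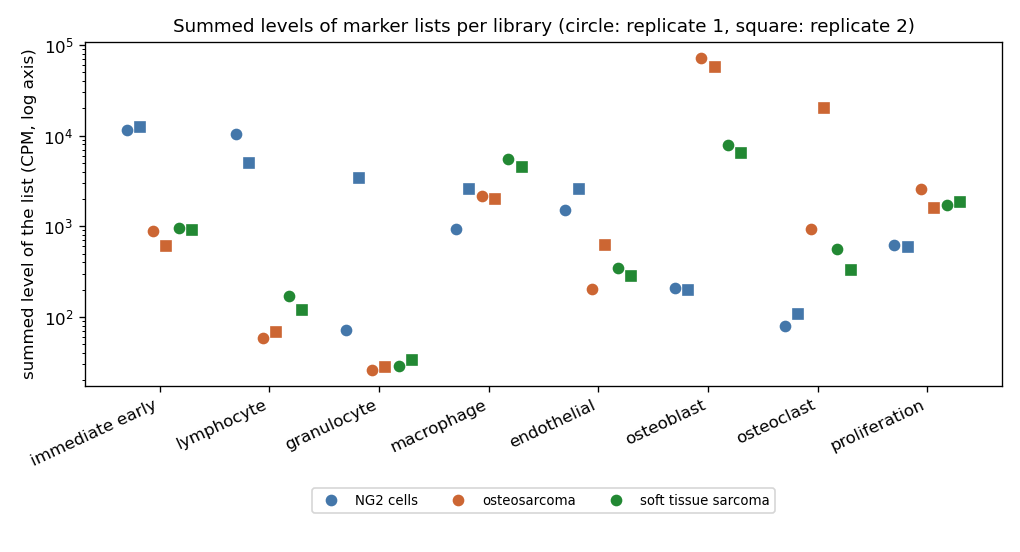
Summed level (CPM, log axis) of the genes of 8 lists in each library, with circles for replicate 1 and squares for replicate 2. The immediate early, lymphocyte, granulocyte and endothelial sums are higher in both NG2 cell libraries than in any tumour library, and the osteoblast, osteoclast and proliferation sums are lower.

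For each member, the protein-coding gene with the most similar profile over the 6 libraries was found by the root mean square difference of centred log2 CPM among 9642 candidates (9643 for Gdf15). Of the pairs given here, Bax was matched most closely, by Cd2bp2 at 0.046, followed by Zmat3 with Mthfsd at 0.075 and Bbc3 with Thrap3 at 0.08. Sesn2 was paired with Atg5 at 0.115 and Pmaip1 with Adgrg1 at 0.154. The looser matches were Btg2 with Dusp2 at 0.256, Trp53inp1 with Adgrf5 at 0.307, Phlda3 with Chst14 at 0.334 and Gdf15 with Gbe1 at 0.316.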

How the data were processed

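Polyadenylated RNA of 6 libraries was extracted with Trizol, copied by template switching from oligo(dT), amplified by PCR and sequenced in pairs, per the labels' protocols. The authors deposited raw counts of reads for each Ensembl gene. The tools named, per the submitters' processing notes, are STAR, HTSeq, DESeq2, cutadapt, Trim Galore and FastQC, with the builds mm10 and GRCm38 and no versions or roles. The strand setting is not given in the sources used here. No member shares exons with another counted gene; the gene body of Sesn2 overlaps Gm12981. Amplified reads lack molecular identifiers, so they are not independent molecules. Unassigned reads (no feature 19.5% to 33.2%, ambiguous 2.57% to 3.22%) were left out.

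The counts were tested with edgeR 4.0.16 in R 4.3.3: TMM scaling, filterByExpr by group (minimum count 10, total 15), quasi-likelihood F tests in 1 model of the 3 groups with 3 residual degrees of freedom, and Benjamini-Hochberg adjustment over all 19024 genes passing the filter, with calls at 0.05. Genes are said to have risen or fallen where called. A standard error is the log2 fold change divided by the square root of F. An exact permutation test of 2 against 2 libraries cannot go below p = 0.333, so none is given. Positions and exon lengths come from GENCODE M21 and promoters from RefSeq. DESeq2 1.42.0, other scaling, filters and groups, a replicate block and leaving out each library were the alternatives. Named beside the members were Trp53, Cdkn1a, Mdm2 and up to 4 genes per list in order of p; other called genes are listed by name only, after their values were seen. Phlda1 and Phlda2 were named in the same way. The members and lists were chosen with earlier results of these data known. Some of the values for single genes are not reported here.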

Additional observations from a re-analysis of the deposited data

How the results depend on the processing

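Over 13 alternative fits, the calls of Btg2, Pmaip1 and Phlda3 in osteosarcoma held in each. Leaving out 1 library at a time gave 3 to 4 called members in osteosarcoma against NG2 cells (5 with all libraries), 0 to 6 in soft tissue sarcoma against NG2 cells (6), and 0 in each such fit between the tumours (0). With DESeq2, 1 member was called between the tumours, where 10.9% of all genes were. A fit without 1 library leaves that group with a lone library, which is assumed to vary like the other groups.

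Replicate numbers did not pair the libraries: deviations of same-numbered libraries correlated at 0.035 (NG2 cells and osteosarcoma), 0.002 (NG2 cells and soft tissue sarcoma) and -0.081 (the tumours). The replicate block gave 4 called members in osteosarcoma, 4 in soft tissue sarcoma and 0 between the tumours, and 2660, 2209 and 8 called genes in all. It ended the call of Bbc3 in osteosarcoma (adjusted p = 0.0658). In soft tissue sarcoma it ended those of Bbc3 (0.057), Zmat3 (0.0579), Mdm2 (0.0613), Fbxw7 (0.0511), Mcl1 (0.057), Htra2 (0.0664) and Nupr1 (0.0529).

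Directions changed only for members that edgeR had not called in that comparison, and for 2 other genes between the tumours. Leaving out 1 library at a time moved the log2 fold change of Sesn2 between -0.531 and 0.318 in osteosarcoma (0.116 without osteosarcoma replicate 1) and between -0.239 and 0.616 in soft tissue sarcoma (-0.051 without soft tissue sarcoma replicate 2), and that of Gdf15 in soft tissue sarcoma between -1.235 and 0.685 (-0.179 without NG2 cell replicate 1). Gdf15 was -0.031 with DESeq2, -0.030 with RLE size factors, -0.256 with the replicate block and -0.021 without immunoglobulin and mitochondrial genes. Between the tumours the ranges were -0.585 to 0.206 for Bbc3, -1.110 to 0.308 for Trp53inp1, -0.122 to 0.278 for Trp53 (-0.053 without soft tissue sarcoma replicate 1) and -0.662 to 0.107 for Cdkn1a. The causes were not tested.

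The stricter filter removed Gdf15. Of the 30 other p53 targets, 11 were called in osteosarcoma and 6 with only the 2 groups compared; 9 were called in soft tissue sarcoma and 4 with the block. Without 1 library these counts were 1 to 11 and 0 to 11. Over all genes, 4086 were called in osteosarcoma (6894 with DESeq2, 2083 with only the 2 groups compared, 1278 to 3429 without 1 library), 3671 in soft tissue sarcoma (6439 with DESeq2, 0 to 4694 without 1 library) and 27 between the tumours (1916 with DESeq2, 409 without a filter, 210 with the stricter one, 0 with only the 2 groups compared, 0 to 315 without 1 library). Among the members, depth was lowest for Phlda3 in NG2 cells, at 21 and 83 reads.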

Other observations

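Beside the p53 targets, 20 proliferation genes were followed. In osteosarcoma 14 of them rose (all tested genes: 10.5%) and 6 were not called, with a median log2 fold change of 2.52. In soft tissue sarcoma 15 rose (all tested genes: 9.89%) and 5 were not called, with a median of 2.24. Their summed level was 614 and 585 CPM for the sorted cells, 2567 and 1593 for the osteosarcomas and 1702 and 1863 for the soft tissue sarcomas. Cdk1, the mitotic kinase gene, stood at 7.12 and 11.8 CPM in NG2 cells and 93.1 to 169 CPM in the tumours, and rose 15.8-fold in osteosarcoma (adjusted p = 0.00559) and 11.7-fold in soft tissue sarcoma (adjusted p = 0.00871). Plk1, which drives entry into mitosis, rose 26.2-fold (adjusted p = 0.00744) and 33.6-fold (adjusted p = 0.00871), log2 fold changes of 4.71 and 5.07 that were 5.48 and 5.85 without NG2 cell replicate 1. The calls in soft tissue sarcoma were lost without either of its libraries, at adjusted p of 0.061 to 0.0655 for these 2 genes.

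Markers of other cells were also summed in the tumours; of the osteoclast, skeletal muscle, macrophage and pericyte lists, edgeR called 0 genes between soft tissue sarcoma and osteosarcoma. The unadjusted p was under 0.05 for 6 osteoclast, 5 macrophage, 3 pericyte and 0 muscle genes, and DESeq2 called 4, 4, 3 and 0 genes of these lists in that order. The sum of 8 osteoclast markers was 923 and 19950 CPM in the osteosarcomas of the tibia and the spine, and that of 10 skeletal muscle markers was 5.06 and 1066 CPM. Macrophage markers summed to 4524 and 5489 CPM in soft tissue sarcoma and 1994 and 2141 CPM in osteosarcoma. The 13 pericyte and mural cell markers summed to 1146 and 1824 CPM in NG2 cells and 692 to 1831 CPM in the tumours. These sums hide genes that moved in opposite directions. Rgs5, at 772.3 and 1290 CPM in NG2 cells, fell in both comparisons. In osteosarcoma 3 of the 13 rose (Cox4i2, Pdgfrb and Mcam) and 2 fell (all tested genes: 10.5% and 11%). In soft tissue sarcoma 0 rose and 2 fell (9.89% and 9.4%).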
